A study of Mus musculus with 6 samples.

Results

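The 10 genes described here belong to the cellular answer to stress in the endoplasmic reticulum (ER) and to its ATF4 branch, and they were chosen by symbol: *Atf4*, *Atf5*, *Ddit3*, *Chac1*, *Trib3*, *Asns*, *Sesn2*, *Hspa5*, *Xbp1* and *Herpud1*. They are 10 symbols and 11 identifiers out of 55335 identifiers in the table, since *Ddit3* is listed under 2. The libraries are bulk RNA-seq of bone marrow-derived macrophages (BMDMs), which were grown from mouse marrow for 7 days in 25 ng/ml M-CSF, the growth factor that turns marrow precursors into macrophages. All BMDMs were of WT genotype, and in both groups they shared a culture for 24 h with neutrophils isolated from the injured spinal cord at 3 days post injury (dpi). The neutrophils came from *Cd177* WT mice in 3 libraries and from *Cd177* KO mice, a whole-animal knockout, in the other 3, and macrophages were then sorted as Ly6G-negative cells. Neither group lacked neutrophils, so the comparison is between kinds of neutrophil. The study's methods give all animals as male and the purchased C57BL/6 mice as adult. They give an age of *Cd177* knockout mice for marrow transplant donors, and none for the knockout mice used here.

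Unfolded protein in the ER is sensed by PERK, IRE1 and ATF6, which are gene products of *Eif2ak3*, *Ern1* and *Atf6*. PERK and its sister kinases phosphorylate the initiation factor eIF2alpha, which slows translation of most mRNAs while letting ATF4 be made, and ATF4 then switches on genes for amino acid supply, redox balance and cell death. IRE1 splices *Xbp1* mRNA, and XBP1 and ATF6 raise chaperones such as BiP, the product of *Hspa5*. ATF4 protein is set largely by translation, and the active forms of XBP1 and ATF6 by splicing and cleavage, none of which gene-level RNA values show.

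Values are FPKM, that is, fragments counted per kilobase of transcript and set against the library's own total, and a fold change is on the log2(FPKM + 0.5) scale, KO-labelled libraries minus WT-labelled libraries, which understates the change of low genes. A gene is called at an adjusted p under 0.05 from limma with Benjamini-Hochberg adjustment over 13367 tested genes. Nothing in the labels says that the 3 libraries of a group came from separate cultures, so p-values measure the spread between these libraries, which may be technical. *Cd177* itself had 0.544, 0.309 and 0.521 FPKM in the WT-labelled libraries and 1.79, 1.84 and 2.28 FPKM in the KO-labelled ones. The knockout lay in the neutrophils and not in the sequenced cells, so this is no check of the BMDMs. Any neutrophil RNA left in the KO-labelled libraries would by the labels come from knockout animals. *Cd177* was higher there, but the sources used here do not say whether the knockout allele still gives transcript. Other neutrophil genes were higher too, *Ngp* at 8.31 and *Ltf* at 9.45 times the WT-labelled mean. Of 12 neutrophil markers tested, 10 were higher, 1 was lower (*Mmp8*) and 1 was not called. Whether the group labels are right was not tested, and every direction below is between libraries as labelled. The column sums lay between 302532 and 340717 FPKM. If 1 step of the low values is 1 fragment, they imply a depth of 17600000 to 20300000 fragments per library. Only 37.3% to 40.5% of them sat near whole steps, against 20% by chance, so this depth is rough. The first principal component (70.8% of the variance) separated the groups, and the second (13.5%) set replicate 3 of each group apart. Of 10 macrophage markers 4 were higher, 1 was lower and 5 were not called, and 2 were higher with median-of-ratios scaling. *Lyz2* was the most abundant, and the list summed to between 7254 and 8704 FPKM in the WT-labelled libraries and between 9513 and 10487 FPKM in the KO-labelled ones.

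Of the 10 members, all of which had a mean of at least 0.5 FPKM under their main identifier, 3 were lower in the KO-labelled libraries (*Hspa5*, *Ddit3* and *Xbp1*), 2 were higher (*Chac1* and *Sesn2*), and 5 were not called. Among all tested genes 37.6% were called, 10.5% as lower and 27.1% as higher. The deposited scale is tilted towards higher values in the KO-labelled libraries, its median log2 fold change over all tested genes being 0.19, against -0.03 over the members. With median-of-ratios scaling the all-gene median was 0.01, 15.9% of genes were lower and 16.6% higher, 51.0% of calls were higher in place of 72.0%, and the members gave 4 lower and 2 higher, *Trib3* being the added one. The groups did not overlap for 8 of the 10 members, 4 in each direction, where 51.9% of all tested genes did not overlap. The members thus did not move one way, and genes that fell and genes that rose stood side by side within the ATF4 branch.

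**Figure D1:**
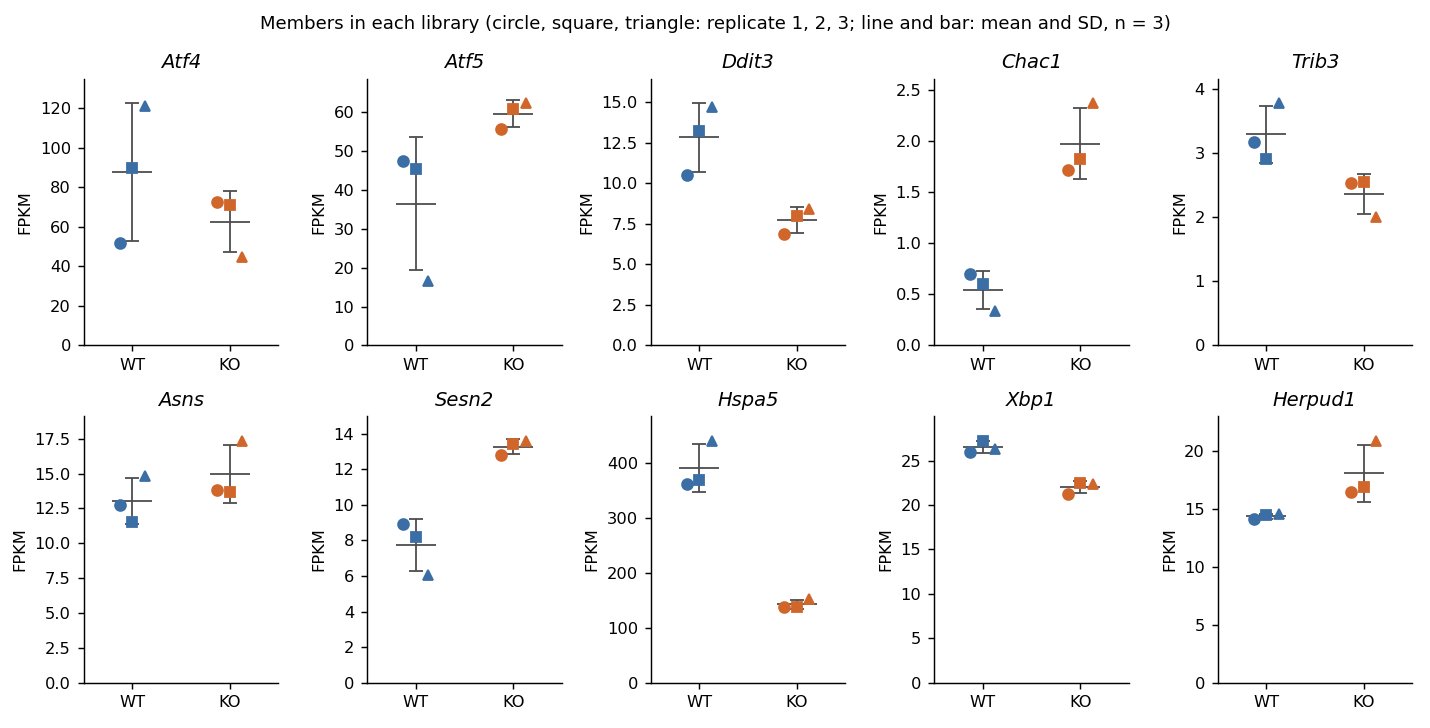
FPKM of the 10 members in the 6 libraries (blue, labelled WT; orange, labelled KO), with the mean and SD (n = 3) of each group and every axis starting at 0. *Hspa5*, *Ddit3*, *Trib3* and *Xbp1* sat lower and *Atf5*, *Chac1*, *Sesn2* and *Herpud1* higher in all 3 KO-labelled libraries, while the groups overlapped for *Atf4* and *Asns*.

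On the log2(FPKM + 0.5) scale the largest change among the members was in *Hspa5*, whereas by the ratio of means and with a pseudocount of 0.1 it was in *Chac1*. *Hspa5* (ENSMUSG00000026864, chr2:34771970-34777547, plus strand, GRCm38) encodes BiP, the main Hsp70 chaperone of the ER lumen and a brake on all 3 sensors. It had 362, 368 and 440.3 FPKM in the WT-labelled libraries and 138, 138 and 152 FPKM in the KO-labelled ones. Every KO-labelled library was far under the lowest WT-labelled one. The mean fell from 390.1 ± 43.6 to 143 ± 8.08 FPKM (SD, n = 3 each), 2.74 times lower, at a log2 fold change of -1.44 (SE 0.10, adjusted p = 0.000111 by limma). The call held in all 18 alternatives tried, with log2 fold changes from -1.64 to -1.35. Of all tested genes, 5.11% were called with a mean more than 2-fold lower.

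*Xbp1* (ENSMUSG00000020484, chr11:5520659-5525893, plus strand) encodes the factor that IRE1 activates by splicing, and its gene-level value pools the spliced and unspliced forms. It had 26.0, 27.2 and 26.2 FPKM in the WT-labelled libraries and 21.3, 22.5 and 22.4 FPKM in the KO-labelled ones. The groups did not overlap, but the gap was small, at a log2 fold change of -0.26 (SE 0.07, adjusted p = 0.0318 by limma). The call was lost in 7 of 18 alternatives, among them leaving out WT replicate 1, WT replicate 2 or any one KO replicate (adjusted p = 0.076, 0.0917, 0.131, 0.0925 and 0.07).

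*Herpud1* (ENSMUSG00000031770, chr8:94386438-94395377, plus strand), whose product helps pass misfolded ER proteins to degradation, lay the other way. It had 14.1, 14.5 and 14.5 FPKM in the WT-labelled libraries and 16.4, 16.9 and 20.9 FPKM in the KO-labelled ones. The groups did not overlap, yet the log2 fold change of 0.31 (95% interval 0.05 to 0.57) was not called (adjusted p = 0.0626 by limma), and 0.12 of it was left with median-of-ratios scaling (adjusted p = 0.460). It was called after rescaling to TPM (adjusted p = 0.0488). *Hspa5* and *Herpud1*, both known targets of ATF6, therefore did not fall together.

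The stress factors are known to act through short sequences, many of them in the start regions of target genes. RefSeq promoter windows (GRCm38.p6, 250 bases before to 50 bases after each start) were searched for 4 such motifs on both strands. The motifs were the CARE, bound by ATF4 with a C/EBP partner (TGATGNAA), the ER stress element ERSE (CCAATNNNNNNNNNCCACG), its variant ERSE-II (ATTGGNCCACG) and the UPRE (TGACGTGG), and they were picked after the values were known. No motif contains another, though ERSE, ERSE-II and UPRE share a run of letters (CCACG or its reverse), and each member had at least 1 window. Among 27025 genes with a window, 0.137% held an ERSE, 0.0444% an ERSE-II, 4.51% a CARE and 0.714% a UPRE. Of the members *Hspa5* held the ERSE, *Herpud1* the ERSE-II, and *Chac1*, *Trib3*, *Asns* and *Herpud1* a CARE, whereas no window of the 10 held the UPRE. The windows of *Atf4*, *Atf5*, *Ddit3*, *Sesn2* and *Xbp1* matched none of these letters, which says nothing of sites elsewhere or of looser spelling. A match is a description of sequence and was not shown to be bound in these cells.

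The pair below is shown because *Hspa5* fell and *Herpud1* did not. Capitals mark the ERSE of *Hspa5* at chr2:34772010-34772058 (plus strand, motif from base -65 to -47, with 0 as the first transcribed base in RefSeq) and, for *Herpud1* at chr8:94386302-94386402 (plus strand), first the CARE in reverse orientation (-112 to -105) and then the ERSE-II (-52 to -42).
Hspa5: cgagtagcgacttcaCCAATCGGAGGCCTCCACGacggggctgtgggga
Herpud1: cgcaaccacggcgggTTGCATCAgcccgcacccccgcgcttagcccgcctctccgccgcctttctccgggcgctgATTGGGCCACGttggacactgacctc

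Besides *Hspa5*, most of the other ER folding genes listed fell. The list was chosen with earlier results of these data known. Of these 20 further ER chaperones and folding enzymes, 17 were called lower, none was called higher and 3 were not called (*Dnajc10*, *Txndc5* and *Sil1*). Among all tested genes 10.5% were called lower. The median log2 fold change of the list was -1.04, where the median of all tested genes was 0.19. Of the 17, 11 had a mean more than 2-fold lower. Summed over the 20, the list held between 2789 and 3176 FPKM in the WT-labelled libraries and between 1365 and 1435 FPKM in the KO-labelled ones. The count of lower genes stayed at 17 without WT replicate 3, where 1 gene (*Sil1*) was called higher, and with median-of-ratios scaling.

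*Hyou1*, a large ER chaperone that exchanges nucleotide on BiP, had 49.5, 50.8 and 34.9 FPKM in the WT-labelled libraries and 13.5, 13.2 and 11.8 FPKM in the KO-labelled ones, at a log2 fold change of -1.76 (SE 0.16, adjusted p = 0.000283 by limma). *Creld2*, a disulfide isomerase of the ER, fell from 68.2, 63.5 and 89.9 FPKM to 20.9, 20.5 and 23.7 FPKM, a log2 fold change of -1.73 (SE 0.14, adjusted p = 0.000207 by limma). Both dropped further than *Hspa5* itself. Other folding genes, named here after their values were seen, fell too. *Calr*, the lectin chaperone calreticulin, went from 669 ± 22.6 to 273 ± 9.77 FPKM (SD, n = 3 each), at a log2 fold change of -1.29 (adjusted p = 4.84e-05 by limma). *Pdia4*, a disulfide isomerase, had 165, 166 and 165 FPKM against 54.3, 54.9 and 53.5 FPKM, the tightest pair of groups in the list (log2 fold change -1.60, adjusted p = 1.11e-05 by limma). *Canx* and *Ppib*, the membrane lectin calnexin and the ER cyclophilin, fell least among those called, by 0.35 and 0.33 on the log2 scale (limma, adjusted p = 0.00833 and 0.0125).

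**Figure D2:**
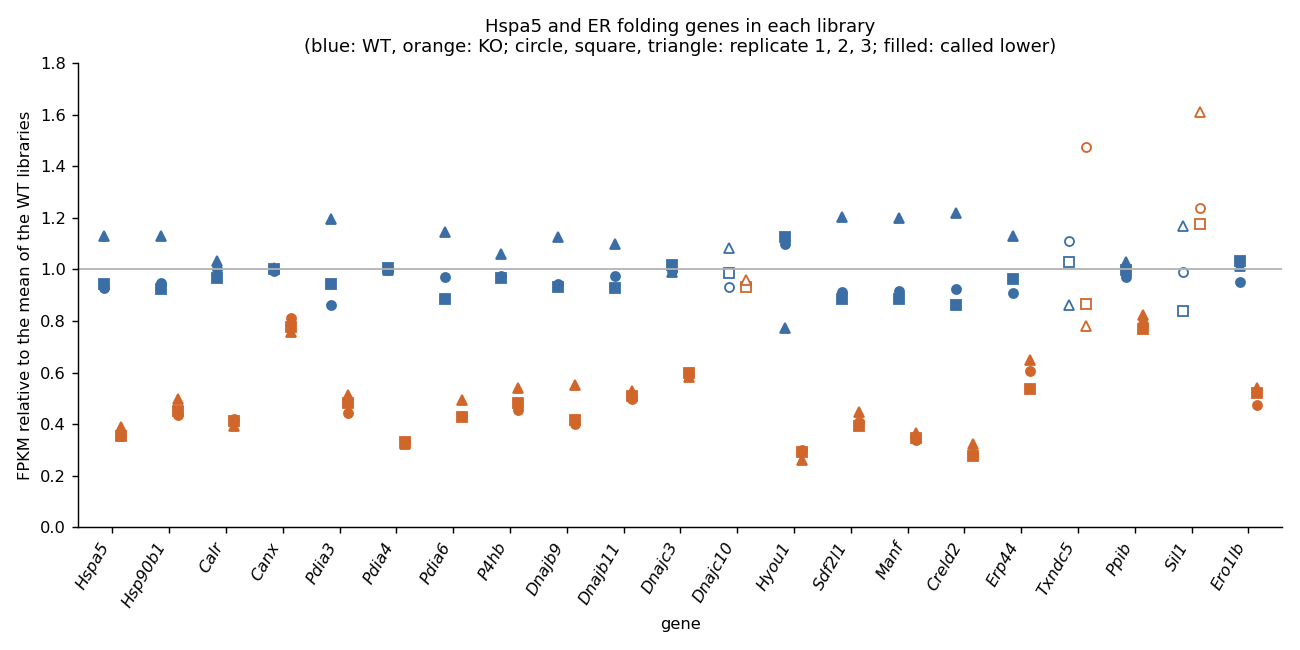
FPKM of *Hspa5* and 20 ER folding genes in each library, divided by the gene's mean over the WT-labelled libraries (blue, labelled WT; orange, labelled KO; filled, called lower). For the 18 genes called lower the KO-labelled libraries lay between 0.261 and 0.824 of that mean and the WT-labelled ones between 0.774 and 1.22, and replicate 3 of WT stood above the other WT replicates in most of them.

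The ERSE of *Hspa5* recurred in this list, in 7 of the 17 genes that had a window (41.2%): *Calr*, *Canx*, *Creld2*, *Dnajc3*, *Ero1lb*, *Hsp90b1* and *Pdia6*. All 7 were among the genes that fell, but so were 17 of the 20 genes listed, so this does not set the 7 apart. Among the genes with a window and no ERSE, only *Dnajc10* and *Txndc5* were not called lower. Over the 9279 tested genes matched to a window by symbol, 15 held the ERSE, 10 of these were lower (66.7%) and 1 was higher, where 10.9% of the 9279 were lower. Besides *Hspa5* and 6 genes of the chaperone list, those 10 were *Syvn1*, *Alg12* and the predicted gene *Gm6566*. *Ero1lb* has another symbol in RefSeq and is not among the 15. *Canx* held the motif and fell by 0.35 on the log2 scale, *Pdia4* fell by 1.60 with no match in its window, and *Hyou1* and *Manf* had no window to search. A CARE was in 256 of the tested genes, of which 15.6% were lower and 28.5% higher, where 28.4% of the 9279 were higher.

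Stretches of 4 of these promoters are shown to set beside that of *Hspa5*, each read along its gene, with the ERSE in capitals. They are *Calr* (chr8:84847060-84847108, minus strand), *Creld2* (chr15:88819505-88819553, plus strand), *Pdia6* (chr12:17266476-17266524, plus strand) and *Canx* (chr11:50325785-50325833, minus strand). The motif reads forward in *Pdia6* and *Canx*, as in *Hspa5*, and in reverse in *Calr* and *Creld2*.
Calr: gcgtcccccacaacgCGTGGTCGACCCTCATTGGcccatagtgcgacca
Creld2: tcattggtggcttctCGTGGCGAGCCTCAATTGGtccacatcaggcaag
Pdia6: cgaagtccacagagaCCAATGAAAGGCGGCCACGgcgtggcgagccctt
Canx: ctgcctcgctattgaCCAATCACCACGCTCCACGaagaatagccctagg

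**Figure D3:**
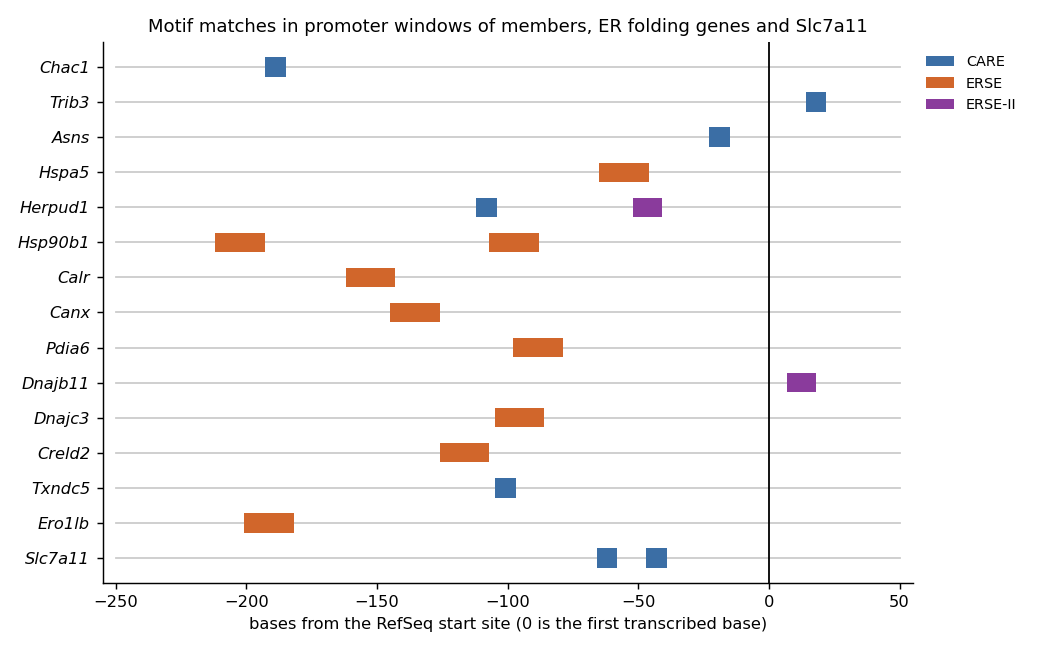
Positions of motif matches in the first promoter window listed for each gene, from 250 bases before to 50 bases after the RefSeq start (x axis, bases; 0 is the first transcribed base), for members, ER folding genes and *Slc7a11* that had a match. The ERSE of *Hspa5* spans -65 to -47, the 2 matches of *Herpud1* span -112 to -105 and -52 to -42, and the CARE of *Trib3* lies after the start, from 14 to 21.

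Genes of ER-associated degradation and translocation moved less than the folding genes. Of 19 tested, 7 were lower, none was higher and 12 were not called, with a median log2 fold change of -0.29. Among all tested genes 10.5% were lower and 27.1% higher. *Selenos*, a membrane protein that recruits p97 to the ER, had 51.6, 48.5 and 66.3 FPKM against 31.3, 32.6 and 33.4 FPKM (log2 fold change -0.75, adjusted p = 0.00415 by limma). *Edem2*, which trims the sugars of misfolded glycoproteins, had 31.8, 32.6 and 32.1 FPKM against 20.5, 21.3 and 18.8 FPKM (log2 fold change -0.66, adjusted p = 0.000991 by limma). With median-of-ratios scaling 11 of the 19 were lower, and 4 were lower without any one KO replicate.

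Plasma cells, which secrete antibody, are a cell type rich in the same chaperones, so their markers were read in the same libraries. *Igkc*, *Mzb1* and *Pou2af1* were at 0 in all 6 libraries, and of the 11 plasma cell and B cell markers 3 reached the filter. *Sdc1*, the most abundant and also made by macrophages, was lower (111 to 117 FPKM in the WT-labelled libraries, 36.3 to 37.8 in the KO-labelled ones), while *Ighm* and *Cd79b* were higher. The list summed to between 112.5 and 117.5 FPKM in the WT-labelled libraries and between 49.5 and 52.4 FPKM in the KO-labelled ones, nearly all of it *Sdc1*. Neutrophil markers were higher in the KO-labelled libraries: 10 of 12 tested were higher, 1 was lower (*Mmp8*) and 1 was not called, of 17 listed. Their sum lay between 202 and 262 FPKM in the WT-labelled libraries and between 558 and 572 FPKM in the KO-labelled ones, led by *S100a9*, and *Ly6g* was at 0 in all 3 WT-labelled libraries and between 0.403 and 0.660 FPKM in the KO-labelled ones. Their part in the changes of the members was not tested. Of the 8 spinal cord markers, *Mbp* alone was tested and was not called, and *Mog*, *Aqp4*, *Snap25* and *Nefl* were at 0 throughout. In bulk RNA, fewer cells of a type and less RNA per cell cannot be told apart.

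The transcription factors of the ATF4 branch had no common direction. *Atf4* (ENSMUSG00000042406, chr15:80255184-80257541, plus strand), the branch's master factor, had 51.7, 90.0 and 121 FPKM in the WT-labelled libraries and 72.4, 71.0 and 44.6 FPKM in the KO-labelled ones. The groups overlapped, and the WT-labelled libraries spread more widely than the KO-labelled ones. The log2 fold change was -0.43 (SE 0.33, 95% interval -1.22 to 0.36, adjusted p = 0.350 by limma), and it moved from -0.77 without WT replicate 1 to -0.15 without WT replicate 3. A difference in *Atf4* mRNA of 2-fold downward thus lay inside the interval.

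*Atf5* (ENSMUSG00000038539, chr7:44812256-44816658, minus strand), a relative of ATF4 that is itself translated under eIF2alpha phosphorylation and guards mitochondria, had 47.4, 45.4 and 16.7 FPKM in the WT-labelled libraries. Those labelled KO had 55.8, 60.8 and 62.4 FPKM. No libraries overlapped between groups, but WT replicate 3 stood far under the other two. The log2 fold change was 0.84 (SE 0.38, adjusted p = 0.126 by limma) with all libraries, and 0.36 (adjusted p = 0.0111) without WT replicate 3, where *Atf5* was called. That same library had the highest *Atf4* value of all 6.

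*Ddit3* (ENSMUSG00000025408, chr10:127290774-127296288, plus strand) encodes CHOP, the factor tied to death under prolonged ER stress. It had 10.5, 13.2 and 14.7 FPKM in the WT-labelled libraries and 6.87, 7.95 and 8.42 FPKM in the KO-labelled ones. The groups did not overlap, and the mean fell from 12.8 ± 2.11 to 7.75 ± 0.796 FPKM (SD, n = 3 each), 1.65 times lower. The log2 fold change was -0.68 (SE 0.14, adjusted p = 0.010 by limma), and the call held in all 18 alternatives (adjusted p from 0.00297 to 0.0415). The second identifier with this symbol (ENSMUSG00000116429, chr10:127290829-127293753), a transcript of 105 bases that overlaps the first, had at most 0.00280 FPKM and was not tested, and how fragments were shared between the overlapping entries is not given in the sources used here.

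Of the downstream genes, *Chac1* (ENSMUSG00000027313, chr2:119351229-119354381, plus strand), which breaks down glutathione, rose most. It had 0.696, 0.602 and 0.333 FPKM in the WT-labelled libraries and 1.72, 1.83 and 2.37 FPKM in the KO-labelled ones. Even the lowest KO-labelled library was above every WT-labelled library. The mean rose from 0.544 ± 0.189 to 1.98 ± 0.349 FPKM (SD, n = 3 each), 3.63 times higher, at a log2 fold change of 1.25 (SE 0.19, adjusted p = 0.00240 by limma). The gene was low, with about 9.81 to 21.7 fragments implied per WT-labelled library and 49.7 to 71.6 per KO-labelled library if one step of the low values is one fragment, so its counting error was larger than that of the other members. *Ddit3* and *Chac1*, which is placed downstream of CHOP in the pathway, thus changed in opposite directions in the same libraries.

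*Sesn2* (ENSMUSG00000028893, chr4:132492032-132510501, minus strand), a leucine-sensing inhibitor of mTORC1 that p53 also induces, had 8.93, 8.21 and 6.08 FPKM in the WT-labelled libraries. In the KO-labelled ones it had 12.8, 13.4 and 13.6 FPKM, so the groups did not overlap. The mean rose 1.72 times, from 7.74 ± 1.48 to 13.3 ± 0.442 FPKM (SD, n = 3 each), at a log2 fold change of 0.76 (SE 0.14, adjusted p = 0.00666 by limma). The calls of *Sesn2* and *Chac1* held in every alternative in which the gene was tested.

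*Trib3* (ENSMUSG00000032715, chr2:152337422-152344032, minus strand), a pseudokinase that feeds back on ATF4, had 3.18, 2.92 and 3.78 FPKM in the WT-labelled libraries and 2.53, 2.55 and 2.00 FPKM in the KO-labelled ones. The groups did not overlap, and the log2 fold change of -0.41 (95% interval -0.73 to -0.08) was just short of a call (adjusted p = 0.0546 by limma). With median-of-ratios scaling it was -0.57 and called (adjusted p = 0.0195). *Asns* (ENSMUSG00000029752, chr6:7675169-7693254, minus strand), asparagine synthetase and a standard readout of ATF4, had 12.7, 11.5 and 14.8 FPKM in the WT-labelled libraries and 13.9, 13.7 and 17.4 FPKM in the KO-labelled ones. The groups overlapped, at a log2 fold change of 0.19 (95% interval -0.13 to 0.51, adjusted p = 0.304 by limma), the same as the median of all tested genes.

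These downstream genes are shown by their CARE, because the 3 of them with one did not move alike: *Chac1* rose, and *Trib3* and *Asns* were not called. Capitals mark the CARE, in reverse in *Chac1* (chr2:119351034-119351071, plus strand, -193 to -186) and in *Trib3* (chr2:152344028-152344057, minus strand, 14 to 21, after the RefSeq start) and forward in *Asns* (chr6:7693210-7693247, minus strand, -23 to -16). Positions count from the RefSeq start, which differs from the start in the gene coordinates printed above. By those coordinates the CARE of *Trib3* lies before the gene, and the CARE of *Asns* and the ERSE of *Hspa5* lie inside their genes. *Slc7a11* (chr3:50443638-50443694, minus strand), an ATF4 target outside the member list, is added because it had the largest fall among the ATF4 targets, and its stretch holds a forward and a reverse CARE.
Chac1: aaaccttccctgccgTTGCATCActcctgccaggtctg
Trib3: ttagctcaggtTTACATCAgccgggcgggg
Asns: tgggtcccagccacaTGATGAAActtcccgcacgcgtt
Slc7a11: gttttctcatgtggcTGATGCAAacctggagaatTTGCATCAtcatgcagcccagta

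**Figure D4:**
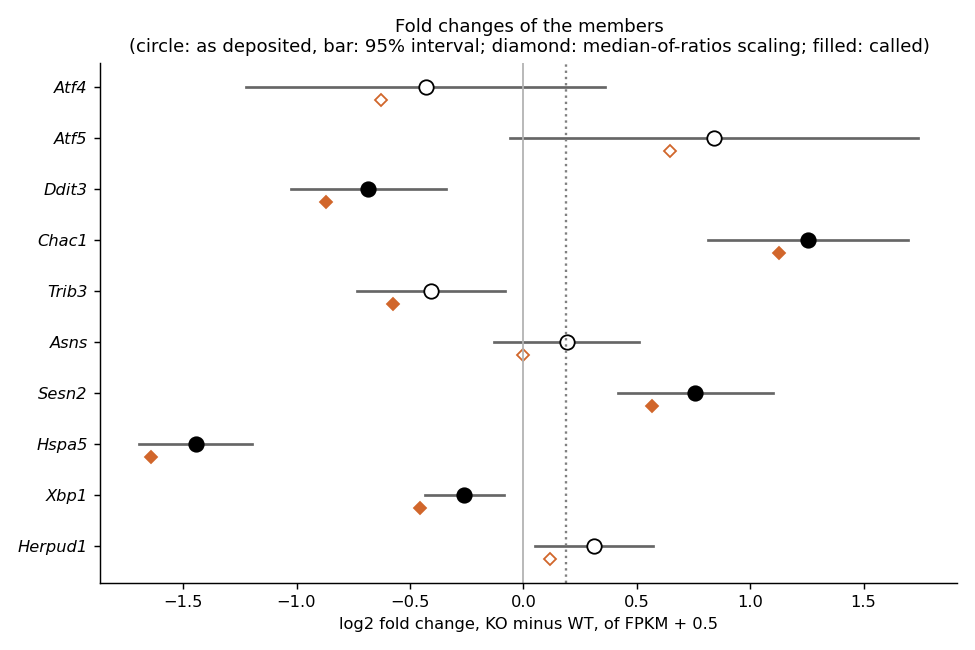
Log2 fold changes of the 10 members (x axis, KO-labelled libraries minus labelled WT, of FPKM + 0.5). Circles and bars are values as deposited with 95% intervals, diamonds are values with median-of-ratios scaling, filled symbols are called, and the dotted line is the median of all tested genes, 0.19. *Hspa5* lies lowest at -1.44, *Chac1* highest at 1.25, and the bars of *Atf4* and *Atf5* are the widest.

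Setting each member against *Atf4* within a library removes the scaling between libraries. The log2 ratio of *Hspa5* to *Atf4* was 2.81, 2.03 and 1.86 in the WT-labelled libraries and 0.927, 0.959 and 1.77 in the KO-labelled ones, a difference of -1.02. That of *Chac1* was -6.21, -7.22 and -8.51 against -5.39, -5.28 and -4.23, a difference of 2.35, and that of *Sesn2* differed by 1.23. For these 3 members the groups did not overlap, with p = 0.1 each in a two-sided exact permutation test, which is the smallest p that 3 against 3 libraries can give (0.3 after Benjamini-Hochberg adjustment over the 9 ratios). The ratios of *Sesn2* nearly met, at -2.53 in the nearest WT-labelled library and -2.50 in the nearest KO-labelled one. The ratios of the other 6 members overlapped between groups, *Ddit3* among them (-0.285, exact permutation p = 0.5).

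By level, *Hspa5* was first and *Atf4* second in both groups, with *Atf5*, *Xbp1*, *Herpud1* and *Asns* next in order and *Trib3* and *Chac1* last. The one exchange of places was between *Ddit3* and *Sesn2*: *Ddit3* was seventh and *Sesn2* eighth by mean FPKM in the WT-labelled libraries, and the reverse in the KO-labelled ones. Neighbours whose library ranges overlapped were *Atf5* and *Xbp1*, *Herpud1* and *Asns*, and *Asns* and *Ddit3* in the WT-labelled libraries. In the KO-labelled ones they were *Atf4* and *Atf5*, *Herpud1* and *Asns*, and *Trib3* and *Chac1*.

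Upstream of the members, the 12 sensors and regulators of eIF2alpha gave 3 lower, 3 higher and 6 not called (median log2 fold change -0.14). Among all tested genes 10.5% were lower and 27.1% higher. The largest change was in *Eif2ak2*, the double-stranded RNA sensor PKR, an interferon-induced kinase of eIF2alpha. It had 24.7, 25.6 and 19.7 FPKM in the WT-labelled libraries and 8.78, 8.19 and 5.62 FPKM in the KO-labelled ones (log2 fold change -1.58, adjusted p = 0.00083 by limma). *Ppp1r15a* and *Ppp1r15b*, the GADD34 and CReP subunits that direct the eIF2alpha phosphatase, were lower, at -0.46 and -0.38 on the log2 scale (limma, adjusted p = 0.0180 and 0.0199). *Mbtps2* and *Mbtps1*, the proteases that cleave ATF6 in the Golgi, were higher by 0.73 and 0.53 (adjusted p = 0.00424 and 0.0186 by limma). *Atf6* itself was higher by 0.65 (adjusted p = 0.0429 by limma), a call lost in 8 of 18 alternatives, median-of-ratios scaling among them (adjusted p = 0.118). The genes of the other ATF6 (*Atf6b*), of IRE1 (*Ern1*), of PERK (*Eif2ak3*), of the heme and amino acid sensors (*Eif2ak1* and *Eif2ak4*) and of eIF2alpha (*Eif2s1*) were not called, with log2 fold changes between -0.35 (*Ern1*) and 0.27 (*Eif2ak3*). With 1 library left out, the calls of *Ppp1r15a* (without WT replicate 1, KO replicate 1 or KO replicate 3, adjusted p 0.0583 to 0.0687), *Ppp1r15b* (any library but WT replicate 3, 0.0506 to 0.0754), *Mbtps1* (KO replicate 1 or 2, 0.0685 and 0.0723) and *Atf6* (WT replicate 1, KO replicate 1 or KO replicate 2, 0.0656 to 0.129) were lost, and without WT replicate 3 *Ern1* and *Atf6b* were called lower (adjusted p = 0.0114 and 0.0282 by limma). *Eif2ak2* and *Mbtps2* kept their calls throughout. With median-of-ratios scaling 5 of the 12 were lower and 1 was higher, where 15.9% of all tested genes were lower and 16.6% higher.

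Of 20 further ATF4 partners and targets that were tested, 5 were lower, 4 higher and 11 not called (median log2 fold change -0.16). The shares of all tested genes were 10.5% lower and 27.1% higher, 37.6% being called. *Slc7a11*, the cystine transporter, had 41.5, 44.7 and 33.6 FPKM in the WT-labelled libraries and 1.45, 1.41 and 1.28 FPKM in the KO-labelled ones (log2 fold change -4.42, adjusted p = 2.36e-06 by limma). *Cebpb*, a C/EBP partner of ATF4 and a macrophage activation factor, had 431, 421 and 578 FPKM against 125, 117 and 163 FPKM (log2 fold change -1.82, adjusted p = 0.00037 by limma). *Bbc3* and *Gdf15*, the death protein PUMA and a secreted stress signal, both also p53 targets, rose. Their log2 fold changes were 1.61 and 1.12, and limma gave adjusted p = 0.000135 and 0.00260. Of the 4 rises, 2 were left with median-of-ratios scaling and without WT replicate 2, KO replicate 1 or KO replicate 2. The CARE was in 6 of the 17 listed genes with a window (35.3%).

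Genes of amino acid synthesis and transport, the class to which *Asns* belongs, gave 3 lower, 2 higher and 12 not called of 17 tested (median log2 fold change 0.11). The shares of all tested genes were 10.5% lower and 27.1% higher. *Slc3a2*, the chain that carries SLC7A11 and SLC7A5 to the surface, had 197, 182 and 198 FPKM in the WT-labelled libraries and 75.8, 64.8 and 66.7 FPKM in the KO-labelled ones (log2 fold change -1.47, adjusted p = 5.39e-05 by limma). *Got1*, an aspartate aminotransferase, fell by 0.88 on the log2 scale (adjusted p = 0.000773 by limma). *Pycr1*, of proline synthesis, and *Slc7a5*, a carrier of large neutral amino acids, rose by 0.82 and 0.62 on the log2 scale (limma, adjusted p = 0.0121 and 0.0166). Both chains of the cystine transporter, *Slc7a11* and *Slc3a2*, were thus lower, while *Slc7a5*, another partner of *Slc3a2*, was higher. The call of *Slc7a5* was lost with median-of-ratios scaling (adjusted p = 0.0584 by limma) and without KO replicate 1 or 2 (0.0621 and 0.0635), and that of *Pycr1* without KO replicate 2 (0.0508).

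The 20 aminoacyl-tRNA synthetases, which charge tRNAs and include known ATF4 targets, gave 2 lower, 3 higher and 15 not called. Their median log2 fold change was -0.0024. For this and the next 2 lists, the shares of all tested genes were 10.5% lower and 27.1% higher. *Lars* and *Yars*, for leucine and tyrosine, were higher by 0.37 and 0.33 (adjusted p = 0.0288 and 0.0234 by limma), and *Rars* and *Farsa*, for arginine and phenylalanine, were lower, at -0.44 and -0.39 (limma, adjusted p = 0.0206 and 0.0290). With median-of-ratios scaling 6 were lower and none higher, so no direction can be given for this class. Each of the 4 named calls was also lost when at least 1 single library was left out (*Lars* and *Yars* without KO replicate 3, adjusted p = 0.0869 and 0.0714, *Rars* and *Farsa* without KO replicate 1, adjusted p = 0.0787 and 0.103, all by limma). Of 10 mitochondrial chaperones and proteases 1 was higher (*Trap1*, 0.30, adjusted p = 0.0479 by limma, a call lost in 11 of 18 alternatives) and 9 were not called. Of 11 cytosolic heat shock genes 2 were lower and 9 were not called. *Hsph1*, a cytosolic relative of *Hyou1*, had a log2 fold change of -0.49 (adjusted p = 0.00446 by limma), and *Hspa1b* one of -0.48 (adjusted p = 0.00891 by limma), though the near-identical copy *Hspa1a* makes that value uncertain. On the deposited scale, the folding genes of the cytosol and mitochondria lay between log2 fold changes of -0.49 and 0.30, with list medians of -0.20 and 0.03. Those of the ER lay between -1.76 and 0.39 with a median of -1.04, so the ranges overlapped.

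**Figure D5:**
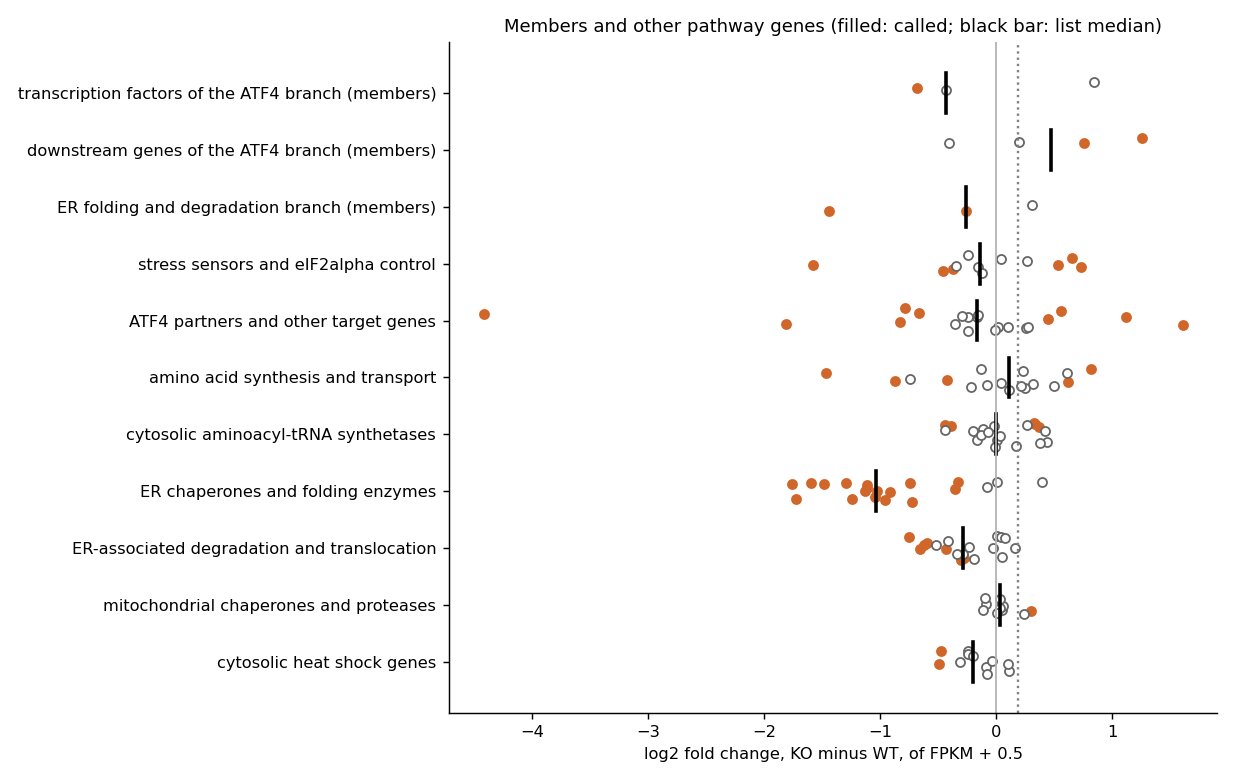
Log2 fold changes (x axis, KO-labelled libraries minus labelled WT, of FPKM + 0.5) of the tested genes in the 3 groups of members and 8 lists of other pathway genes; each point is a gene, filled where called, black bars are medians and the dotted line is the all-gene median of 0.19. The ER chaperones have the lowest median, -1.04, though some of their points lie among those of the other lists, and *Slc7a11* is the point furthest left at -4.42.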

How the data were processed

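RNA-seq values of 6 libraries were analysed, 3 labelled WT and 3 labelled KO for the neutrophils' *Cd177*. The authors deposited FPKM per gene, the unit used here, and no per-sample column was left unmatched (0). The submitters' processing notes name fastp 0.17.1, HISAT2 2.1.0 and DESeq2 1.18.1. The build, annotation and quantifier are not given in the sources used here, and the labels and the methods name different kits and sequencers. FPKM depends on the library total, so a change in abundant genes shifts the rest. Of 55335 identifiers, 99.7% matched GENCODE M21 (GRCm38), the source of symbols and positions.

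The test was limma 3.58.1 under R 4.3.3 on log2(FPKM + 0.5), by lmFit and a trended eBayes, two-sided and with no covariate. It covered the 13367 genes whose mean reached 0.5 FPKM, with Benjamini-Hochberg adjustment. The authors used DESeq2, which needs counts and was not used here. Low values sat within 0.1 of a whole multiple of one step in 37.3% to 40.5% of cases, against 20% by chance, so whole reads could not be had and count models were not fitted. Alternatives changed the pseudocount (0.1, 1), the filter, the scaling, the variance model, the replicate block and the libraries used.

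The members, lists and tests were chosen with earlier results of these data known. Named genes are the members, the sensor list, and from each other pathway list the 2 largest rises and 2 largest falls among called genes whose mean reached 1 FPKM and whose groups stood apart; others are marked in the text. Promoter windows are from RefSeq (GRCm38.p6). Python 3.11.15, pandas 2.3.3, numpy 2.4.6, scipy 1.17.1 and matplotlib 3.10.9 were used for the rest.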

Additional observations from a re-analysis of the deposited data

How the results depend on the processing

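The calls of *Hspa5* and *Ddit3* (lower) and *Sesn2* (higher) held in all 18 alternatives, and that of *Chac1* in the 17 in which it was tested. Of the members, 1 was lower in place of 3 at an adjusted p under 0.01 and also at a fold change above 2 with an unadjusted p under 0.05, and 1 was higher in place of 2 at that fold change and where the mean had to reach 5 FPKM. Leaving out 1 library each gave 2 to 3 members lower and 2 to 3 higher. *Eif2ak1*, at a log2 fold change of 0.0428, turned to -0.147 under median-of-ratios, -0.0415 under upper-quartile and -0.0515 under quantile scaling, and lay between -0.0561 (without WT replicate 3) and 0.115 with 1 library left out, none of them called. The log2 ratio of *Trib3* to *Atf4* turned from -0.0481 to 0.0232 with a pseudocount of 0.5. With median-of-ratios scaling the lists gave 5 lower and 1 higher (sensors), 2 higher (ATF4 targets), 6 lower and 1 higher (amino acids), 6 lower and 0 higher (tRNA synthetases), 11 lower (degradation), 2 lower and 0 higher (mitochondrial) and 6 lower (heat shock). Quantile normalization gave 2 higher ATF4 targets, 4 lower and 1 higher tRNA synthetases, 0 higher mitochondrial genes, and 5 lower and 1 higher heat shock genes. Upper-quartile scaling gave 0 higher tRNA synthetases and 0 higher mitochondrial genes, TPM gave 6 and 0, no variance trend gave 0 higher mitochondrial genes, and no filter gave 2 higher ATF4 targets, 1 lower tRNA synthetase and 0 higher mitochondrial genes. The causes were not tested, other than that scaling shifts the median of all genes from 0.19 to 0.01. Leaving out 1 library each, the counts ranged from 1 to 5 lower and 1 to 3 higher for sensors, 2 to 5 higher for ATF4 targets, 3 to 5 lower and 0 to 3 higher for amino acids, 0 to 3 lower and 0 to 5 higher for tRNA synthetases, 0 to 1 higher for ER chaperones, 4 to 8 lower for degradation, 0 to 2 higher for mitochondrial and 0 to 1 higher for heat shock genes, while the ER chaperones kept 16 to 17 lower. Over all genes 5027 were called, 3479 to 5966 with 1 library left out, and 2739 of the 6835 whose mean reached 5 FPKM. Both groups carry replicate numbers 1 to 3, and deviations of same-numbered libraries correlated at 0.116, 0.036 and 0.264, the last being the highest of any pair. Differently numbered libraries correlated at -0.233 to 0.160, and WT replicate 1 correlated best with KO replicate 2 (0.160). Whether the numbers pair the libraries is therefore not known. With the replicate number as a block 5934 genes were called, *Herpud1* (0.31, adjusted p = 0.0452 by limma) and *Ern1* (-0.35, adjusted p = 0.0379) among them, and among the lists 5 amino acid genes, 7 tRNA synthetases and 1 ER chaperone were higher and 11 degradation genes were lower. Depth limits *Chac1* most among the members.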
